A study of Ovis aries with 16 samples.

Results

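Fibrosis-linked miR-21-5p, miR-29a-3p, miR-29b-3p, miR-29c-3p, miR-214-3p and miR-34a-5p were followed across serum and serum extracellular vesicles (EVs, membrane-bound particles that cells release) of sheep before and after a Fontan operation. They were chosen by name from a list of 7, of which 6 had a row among the 1105 names of the count table. The seventh, miR-21-3p, was not analysed here. The Fontan operation leads systemic venous blood to the lungs without a pumping ventricle, and here it was done in a single stage in adolescent sheep whose hearts had both ventricles and normal anatomy. Serum and EVs each gave 8 libraries, 5 from before surgery (animals A to E) and 3 from after it (animals D to F), which makes 16 in 4 groups. The libraries from before surgery carry the treatment label Control, and no other surgery group was compared here. The later samples were drawn on day 6 in animal D and on day 7 in the other two, so the times are compared within an animal only for D and E. The labels name no breed or sex, and the letters were read as animals.

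These miRNAs are short RNAs that guide the silencing of messenger RNAs matching their seed, the bases near their 5′ end. miR-21-5p is raised in fibroblasts of the stressed mouse heart, where it lowers the signalling inhibitor Sprouty1. The miR-29 family acts the other way, since its targets include messenger RNAs of collagens, elastin and fibrillin, and its loss in the scar border of the infarcted mouse heart goes with more collagen. miR-214-3p is transcribed together with miR-199a from the DNM3OS gene and limits calcium overload in the injured mouse heart. miR-34a-5p is induced by the tumour suppressor p53 and rises in the ageing mouse heart. In blood, miR-21-5p comes from many sources, platelets and white blood cells among them.

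The sheep RefSeq gene table (assembly ARS-UI_Ramb_v3.0) held 4 of 7 gene symbols looked up for these miRNAs, namely MIR21, MIR29A, MIR29B-1 and MIR29B-2. By start position, MIR21 comes between VMP1 and TUBD1 in it, with 1 uncharacterised locus between VMP1 and MIR21. CD46 comes between MIR29B-1 and MIR29B-2 in the same order. Gene ends were not compared, so the order does not show whether these genes overlap. The count table names its rows by human entries, and reads of miR-29a-3p, miR-29b-3p and miR-29c-3p, which are near-identical and share a seed, could have been split between them by the authors' counting.

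Library totals ran from 65537 to 639207 counts. Red blood cell miRNAs (6 of 6 listed markers present, none at 0 throughout a group) held 20.2% to 64.0% of counts in serum before surgery, 23.7% to 50.1% in serum after it, 15.1% to 54.7% in EVs before it and 20.6% to 27.6% in EVs after it. Shares of any other miRNA depend on this load, and its part in the results below was not tested. The Wilson 95% interval of the share of a member in 1 library had a half-width of at most 0.0938 percentage points. All intervals given here cover counting error only. In serum and EVs, a change in how many cells or vesicles release a miRNA cannot be told apart from a change in how much each releases.

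All 6 miRNAs were above 0 in all 16 libraries, at levels that differed widely. miR-21-5p had 617 to 3941 counts and ranked between 7 and 53 among the names of a library (median 18.5). miR-29a-3p had 115 to 2071 counts and ranked between 30 and 86 (median 50). miR-29c-3p had 16 to 360 counts, miR-29b-3p 19 to 232, miR-34a-5p 9 to 121 and miR-214-3p 4 to 325. The last 4 thus rest on few reads in the shallow libraries, and their values there have wide counting errors.

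**Figure D1:**
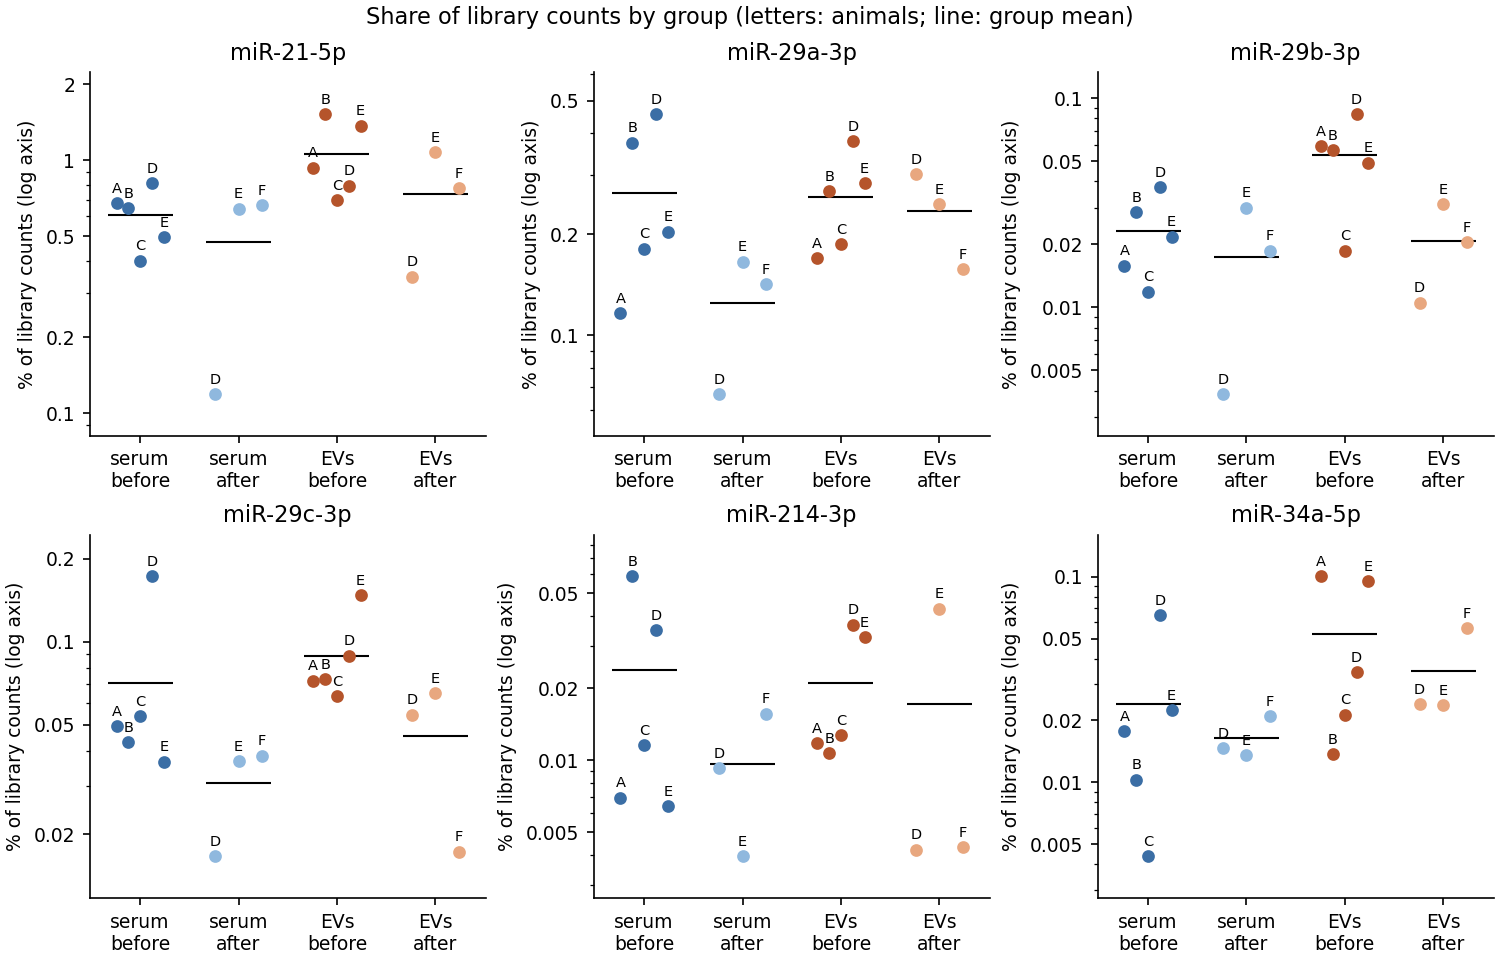
Percent of library counts (vertical log axis) of each of the 6 miRNAs in serum and EVs before and after surgery, with 1 point per library, letters for animals and a line at the group mean. In the 4 comparisons of 2 groups made here, the groups overlap except for miR-34a-5p in EVs against serum after surgery, and serum of animal D after surgery is the lowest point for miR-21-5p, at 0.119%.

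miR-21-5p took 0.677%, 0.647%, 0.401%, 0.812% and 0.498% of counts in serum of animals A to E before surgery. After surgery it took 0.119%, 0.645% and 0.666% in serum of animals D, E and F. Animals E and F after surgery lay within the range from before, and animal D after surgery lay below it. In EVs before surgery it took 0.934%, 1.52%, 0.694%, 0.793% and 1.37% in animals A to E, and after surgery 0.346%, 1.08% and 0.778% in animals D, E and F. The EV groups overlap, with animal D again lowest after surgery. The order of the group means was EVs before surgery (1.06% ± 0.364, SD, n = 5), EVs after (0.735% ± 0.369, n = 3), serum before (0.607% ± 0.160, n = 5) and serum after (0.477% ± 0.310, n = 3), and the ranges of neighbours in this order overlap. In all 8 pairs of EVs and serum from the same animal and time except animal D before surgery (0.793% in EVs and 0.812% in serum), the share was higher in EVs.

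The low share of animal D after surgery came in libraries led by another name. miR-1915-3p was the most abundant name in both libraries of animal D after surgery, with 26.6% of counts in serum and 16.3% in EVs, and it held 0.820% and 0.694% in those of animal D before surgery. It also led EVs of animal B before surgery (15.2%), where miR-21-5p had its highest share, 1.52%. Its part in the share of miR-21-5p was not tested.

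miR-29a-3p, the most abundant of its family here, took 0.116%, 0.375%, 0.181%, 0.456% and 0.203% of counts in serum of animals A to E before surgery. After surgery it took 0.0668%, 0.166% and 0.142% in serum of animals D, E and F. In EVs it took 0.169%, 0.269%, 0.187%, 0.379% and 0.284% before surgery, and 0.302%, 0.246% and 0.157% after it. Serum after surgery held the lowest library of all, but animals E and F there lay above serum of animal A before surgery, so the serum groups overlap. Of the EV values after surgery, those of animals D and E lay within the range from before and that of animal F just below it. The group means were 0.266% ± 0.143 in serum before, 0.258% ± 0.0844 in EVs before, 0.235% ± 0.0731 in EVs after and 0.125% ± 0.0516 in serum after surgery (SD, n = 5, 5, 3 and 3), and the ranges of neighbours in this order overlap. Unlike miR-21-5p, it had no common direction between EVs and serum before surgery, being higher in EVs in animals A, C and E and lower in animals B and D. After surgery it was higher in EVs than in serum in all 3 animals.

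The less abundant members of the miR-29 family were more scattered. miR-29b-3p had a mean share of 0.0232% ± 0.0103 in serum before surgery, 0.0175% ± 0.0131 in serum after it, 0.0534% ± 0.0234 in EVs before and 0.0208% ± 0.0103 in EVs after it. miR-29c-3p had 0.0711% ± 0.0572, 0.0306% ± 0.0122, 0.0890% ± 0.0339 and 0.0455% ± 0.0250 in the same order (SD, n = 5, 3, 5 and 3). Group ranges of both overlap in each comparison. miR-29c-3p stood at 0.173% in serum of animal D before surgery, the serum library with the lowest total. The other 4 serum libraries from before surgery had 0.0366% to 0.0537%. The library of animal D also had the highest share of miR-21-5p, miR-29a-3p, miR-29b-3p and miR-34a-5p in that group, but not of miR-214-3p. Its TMM factor was 2.69, against 0.278 to 0.757 in the other 4. miR-486-5p held 9.43% of its counts, against 24.1% to 36.1%. In serum, the comparison of animal D between times rests on this library.

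miR-214-3p had 11, 325, 74, 27 and 10 counts in serum of animals A to E before surgery and 48, 7 and 41 in serum of animals D, E and F after it. In EVs it had 8, 7, 72, 102 and 28 counts before and 20, 69 and 4 after surgery. Serum of animal B before surgery held the highest count and share (0.0588%), and the other 15 libraries had at most 0.0431%. miR-34a-5p had 28, 57, 28, 50 and 35 counts in serum before and 76, 24 and 55 after surgery, and 68, 9, 121, 95 and 81 in EVs before and 114, 38 and 52 after it. Its counts followed library totals poorly, since serum of animal C before surgery, the deepest library, held 28 and EVs of animal A before surgery, with 67882 counts in all, held 68. Its share in EVs after surgery (0.0237% to 0.0560%) lay above that in serum after surgery (0.0136% to 0.0210%). This was 1 of 6 members without overlap in that comparison, where 34.4% of the 747 names tested had groups that did not overlap. In the other 3 comparisons of 2 groups, 0 of 6 members had groups that did not overlap, against 2.3% of names in serum after against before surgery, 1.99% in EVs after against before and 6.51% in EVs against serum before surgery.

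The balance of miR-21-5p to miR-29a-3p was taken as the ratio of their counts within a library, which no scaling of libraries changes. Ligation and PCR can favour one sequence over another, so the ratio is compared between libraries and is not a ratio of molecules. miR-21-5p exceeded miR-29a-3p in all 16 libraries, from 1.15 to 5.82 times. In serum before surgery the ratio was 5.82, 1.73, 2.21, 1.78 and 2.45 in animals A to E, and after surgery it was 1.78, 3.89 and 4.69 in animals D, E and F. Animal A stood apart before surgery, and the groups overlap. In EVs before surgery the ratio was 5.51, 5.67, 3.72, 2.09 and 4.81 in animals A to E, and after surgery it was 1.15, 4.39 and 4.95 in animals D, E and F. Animal D had the lowest ratio of its group in EVs before, EVs after and serum after surgery, and the second lowest, after animal B, in serum before.

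**Figure D2:**
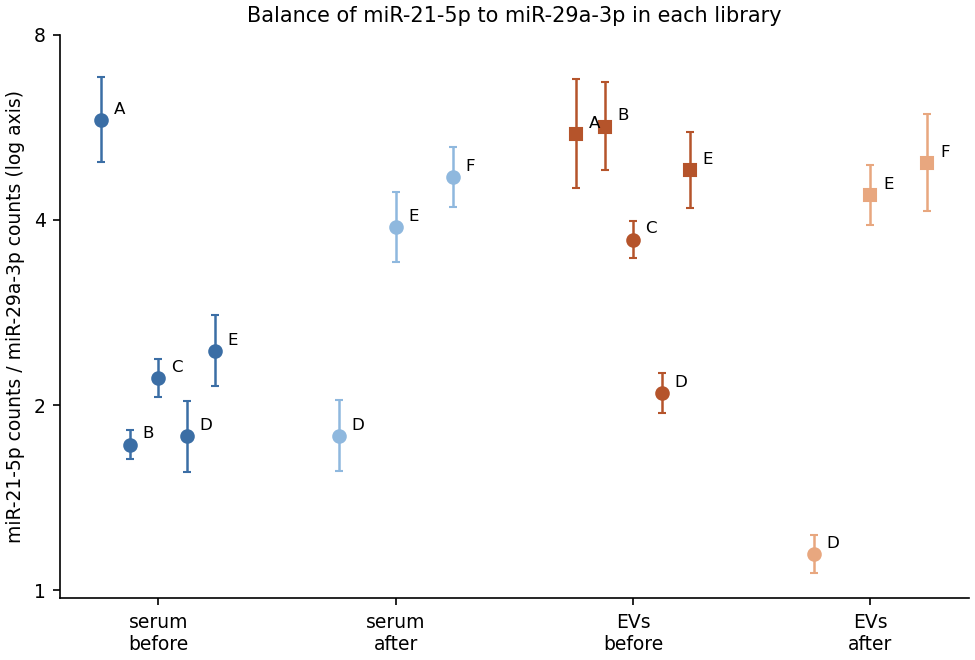
Counts of miR-21-5p divided by counts of miR-29a-3p in each library (vertical log axis), with exact 95% counting intervals as bars, letters for animals and squares for the 5 EV libraries that share their names at 0. The squares lie between 4.39 and 5.67, above the 3 other EV libraries at 1.15 to 3.72, and before and after surgery overlap in serum and in EVs.

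On the log2 scale the mean ratio was 1.32 ± 0.71 in serum before surgery, 1.67 ± 0.74 in serum after, 2.04 ± 0.60 in EVs before and 1.54 ± 1.17 in EVs after it (SD, n = 5, 3, 5 and 3). After against before surgery the means differed by 0.36 in serum and by −0.49 in EVs, in both cases less than the SD of either group. Without animal A before surgery the serum difference was 0.66, and without animals D, E or F after surgery it was 0.78, 0.21 and 0.078. It was 0.22 and 0.23 without animal B or D before surgery. Without animal D after surgery the EV difference turned to 0.18, and it was −0.79 and −0.87 without animal E or F after surgery. Within animals, the serum ratio of animal D was 1.78 at both times and that of animal E went from 2.45 to 3.89. In EVs it went from 2.09 to 1.15 in animal D and from 4.81 to 4.39 in animal E. Before surgery the ratio was higher in EVs than in serum in 4 of 5 animals, by 0.72 ± 0.69 on the log2 scale (SD of the differences within animals, n = 5), and animal A had −0.077. After surgery the difference was −0.13 ± 0.44 (n = 3), with −0.64 in animal D, 0.17 in animal E and 0.076 in animal F. Against the sum of the 3 miR-29 members, the corresponding differences were 0.35 in serum and −0.20 in EVs for after against before surgery, 0.53 for EVs against serum before and −0.031 for EVs against serum after it. No p is given for these ratios, because the members were chosen with earlier results of these data known.

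The ratio in EVs moved with the names that a library listed at 0 and with its depth. Nearly the same names were listed at 0 in 5 EV libraries, from animals A, B and E before and animals E and F after surgery (296 to 320 names each, against 67 to 190 in the other 3 EV libraries). These 5 libraries had totals of 65537 to 160079 counts and ratios of 4.39 to 5.67, and the other 3 had totals of 276696 to 567514 counts and ratios of 1.15 to 3.72. Among the 5, the ratio was 4.81 to 5.67 before surgery and 4.39 and 4.95 after it, so the times overlap there as well, with a log2 difference of −0.19. Both EV libraries of animal D, with ratios of 2.09 before and 1.15 after surgery, are among the other 3, beside animal C before surgery (3.72). Animal, depth and shared zeros thus cannot be told apart here, and their part in the ratio was not tested. In serum, the only set that shares its zeros and holds both times is animal B before surgery (1.73) and animals E and F after it (3.89 and 4.69), a log2 difference of 1.31 that rests on 1 library from before surgery.

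Within the miR-29 family, the part taken by miR-29a-3p was larger in the EV libraries from after surgery than in those from before it. It made up 56.4%, 67.4%, 69.5%, 68.7% and 59.1% of the summed counts of miR-29a-3p, miR-29b-3p and miR-29c-3p in EVs of animals A to E before surgery, and 82.4%, 71.9% and 80.7% in animals D, E and F after it. All 3 values after surgery lay above all 5 from before. The means were 78.3% ± 5.61 (n = 3) and 64.2% ± 6.03 (n = 5), a difference of 14.1 percentage points, and the difference within animals was 13.6 in animal D and 12.8 in animal E. Exact 95% counting intervals of single libraries still met, for example 61.4% to 73.1% in animal B before and 67.9% to 75.6% in animal E after surgery. In serum the corresponding values were 64.1%, 83.9%, 73.4%, 68.4% and 77.7% before and 76.5%, 71.3% and 71.3% after surgery, with means of 73.5% ± 7.76 and 73.0% ± 3.04. This share was singled out after the values were seen and carries no test. How often such a gap arises in the shares of other families was not computed. The share rests on counts of as few as 16 for miR-29c-3p and 19 for miR-29b-3p in EVs of animal F after surgery. It also depends on how the counting divided reads of the 3 near-identical members, which is not known here. Among the 5 EV libraries that share their zeros the difference was 15.3 percentage points. These are a part of the libraries in which the share was singled out, so they give no separate support. In the serum set that shares its zeros the direction was opposite, with 83.9% in animal B before and 71.3% in animals E and F after surgery. In EVs before surgery the part of miR-29b-3p was 13.2% ± 4.85 against 6.78% ± 1.69 in serum, higher in EVs in all 5 animals by 1.89 to 10.9 percentage points.

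**Figure D3:**
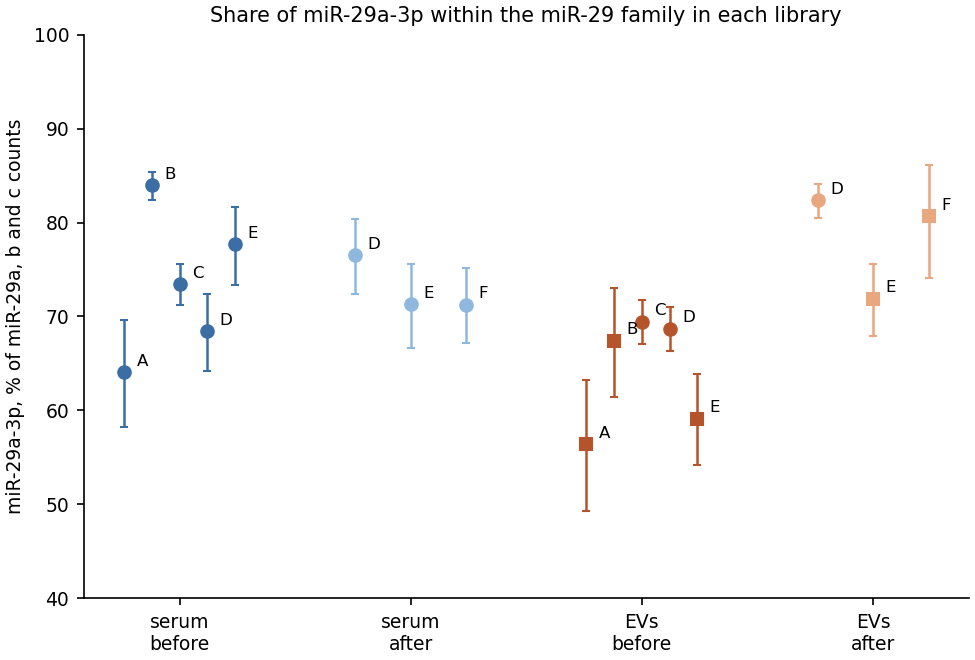
Counts of miR-29a-3p as a percent of the summed counts of miR-29a-3p, miR-29b-3p and miR-29c-3p in each library, with exact 95% counting intervals as bars, letters for animals and squares for the 5 EV libraries that share their names at 0 (the axis starts at 40%). In EVs the 3 libraries after surgery (71.9% to 82.4%) lie above the 5 before it (56.4% to 69.5%), and in serum the groups overlap.

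None of the 6 miRNAs passed the test in any comparison. Each comparison was fitted over all names with edgeR (quasi-likelihood test, Benjamini-Hochberg adjustment, threshold 0.05), and all 6 members passed the filter on low counts in each. In serum after against before surgery, 0 of 6 members and 0% of 696 names passed, and 0 members and 7.76% of names had an unadjusted p under 0.05. For miR-29a-3p the fitted log2 fold change was −0.91 (SE 0.77, adjusted p = 0.968, edgeR) and for miR-214-3p −1.12 (SE 0.90). With each library left out in turn these ran from −1.29 to −0.51 and from −1.63 to −0.0066, both nearest to 0 without serum of animal B before surgery, and with the animal as a block they were −0.34 and −0.060. miR-29c-3p had −0.77 (SE 0.62), miR-29b-3p −0.22 (SE 0.65), miR-21-5p −0.18 (SE 0.79) and miR-34a-5p 0.35 (SE 0.52). The median of the members was −0.50 and that of all names −0.20.

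In EVs after against before surgery, 0 of 6 members and 0% of 856 names passed, with 0 members and 1.75% of names at an unadjusted p under 0.05. On the log2 scale the fitted change of miR-29a-3p was 0.51 (SE 0.74, adjusted p = 0.999, edgeR), that of miR-29b-3p −0.87 (SE 0.57) and that of miR-29c-3p −0.22 (SE 0.69). miR-21-5p (−0.081, SE 0.62), miR-214-3p (0.12, SE 0.90) and miR-34a-5p (0.034, SE 0.55) lay near 0. The median of the members was −0.024, close to that of all names at −0.017. DESeq2 called 0 names in this comparison and in serum.

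**Figure D4:**
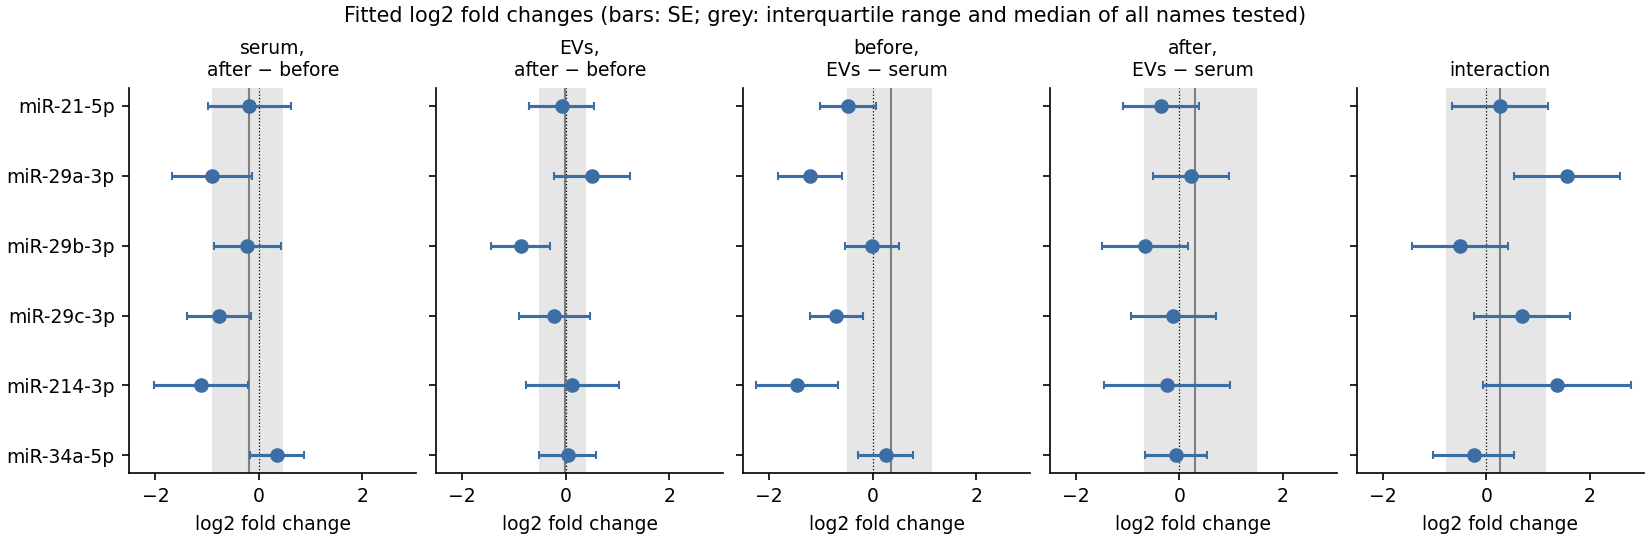
Fitted log2 fold changes (horizontal axes) of the 6 miRNAs in the 4 comparisons of 2 groups and in the interaction, with points at the estimate and bars of 1 SE. The grey band spans the interquartile range of all names tested and the grey line their median, and the members lie on either side of 0 in every panel, for example miR-214-3p at −1.12 and miR-34a-5p at 0.35 in serum.

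For EVs against serum before surgery, 0 of 6 members passed where 2.99% of 768 names did (23 names by edgeR, and 0 with the animal as a block). The direction of miR-21-5p in this comparison depended on the scaling. Its log2 fold change was −0.48 (SE 0.55, adjusted p = 0.700, edgeR) with TMM factors, which centre the bulk of names, and 0.81 (SE 0.41, adjusted p = 0.454) under library totals, which follow the shares given above. The median over all names was 0.35 with TMM factors and 1.05 under library totals, so that relative to the other names miR-21-5p stood at −0.82 and −0.24. miR-29a-3p had −1.21 (SE 0.62, adjusted p = 0.423) with TMM factors and −0.046 under library totals, or −1.56 and −1.10 relative to the median. miR-214-3p had −1.46 (SE 0.79, adjusted p = 0.457), miR-29c-3p −0.70 (SE 0.51), miR-29b-3p −0.016 (SE 0.52) and miR-34a-5p 0.25 (SE 0.52). The value of miR-214-3p ran from −2.07 to −0.41 with each library left out in turn, and was −0.41 without serum of animal B. Under library totals miR-29c-3p turned to 0.33 and miR-29b-3p to 1.21. All 6 members lay below the median of all names with TMM factors, and the 6 had a median of −0.59. Under library totals 4 of 6 lay below it, while miR-29b-3p stood 0.16 and miR-34a-5p 0.10 above it. A low position with TMM factors was not particular to the members. Most names tested in each list of cell markers also lay below the median of all names. Only 1 of 6 red blood cell, 1 of 6 platelet and 5 of 40 other fibrosis-linked miRNAs lay above it.

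After surgery, EVs against serum gave 0 of 6 members and 0% of 747 names past the threshold by edgeR, while DESeq2 called 41 names and no member. The fitted log2 difference was −0.35 for miR-21-5p (SE 0.74, adjusted p = 0.887, edgeR) and 0.22 for miR-29a-3p (SE 0.73). The other 4 lay between −0.67 for miR-29b-3p and −0.065 for miR-34a-5p. These signs depended on the scaling: under library totals all 6 were positive, from 0.25 for miR-29b-3p to 1.07 for miR-34a-5p, with 0.62 for miR-21-5p. The median of all names was 0.30 with TMM factors and 1.48 under library totals, and all 6 lay below it with both. The interaction, which asks whether the difference of EVs from serum changed with surgery, gave 0 of 6 members and 0% of 1018 names, with 5 names and no member by DESeq2. Among the members miR-29a-3p had the largest interaction, 1.55 (SE 1.02, adjusted p = 0.774, edgeR), and miR-21-5p had 0.26 (SE 0.93). The value of miR-29a-3p ran from 0.77 to 1.97 with each library left out in turn, and was 0.77 without EVs of animal D after surgery.

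Rows related to the members, or to miR-199a, by arm, family, seed or primary transcript were sparse, and 6 of 16 listed had a row. The other arm of miR-29c, miR-29c-5p, had 31 to 279 counts. It exceeded miR-29c-3p in 4 EV libraries (A, B and E from before and F from after surgery) and in no serum library. All 4 belong to the shallower EV libraries that share their zeros. In the deeper EV libraries the log2 ratio of miR-29c-5p to miR-29c-3p was −0.42 (C before surgery), −1.58 (D before) and −2.51 (D after). In EVs of animal F after surgery it had 279 counts against 16 for miR-29c-3p. miR-199a-3p was abundant, with 148 to 2289 counts. Its log2 fold change was −0.88 (SE 0.89) in serum and 0.26 (SE 0.80) in EVs for after against before surgery. The count table also holds a row named miR-199b-3p, with −1.41 (SE 0.85) in serum. How reads were divided between these 2 rows is not known here. The row of miR-199a-3p is thus not a measure of the transcript that yields miR-214. The other arm of miR-199a, miR-199a-5p, was listed at 0 in 8 libraries and had at most 29 counts. miR-34c-3p of the miR-34 family had 13 to 72 counts in all 8 EV libraries and was listed at 0 in 5 of 8 serum libraries. miR-199b-5p had at most 52 counts and miR-449b-5p, which shares the seed of miR-34a, at most 19. None of those that could be tested passed in any comparison.

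Of 46 other miRNAs linked to fibrosis, 44 had a row, and none passed the test in either direction in any comparison. In serum after against before surgery, 14 of 42 tested lay above 0 (median −0.28, all names −0.20), and in EVs 19 of 39 (median −0.15, all names −0.017). For EVs against serum before surgery 10 of 40 lay above 0 (median −0.38, all names 0.35). The 4 with the highest mean level were miR-122-5p of hepatocytes, miR-150-5p of lymphocytes, miR-223-3p of neutrophils and monocytes, and miR-192-5p of liver, gut and kidney. In EVs after against before surgery their log2 fold changes were 3.32 (SE 1.23), −0.93 (SE 0.94), 0.59 (SE 0.80) and 0.48 (SE 0.86), and the adjusted p was 0.999 for all 4 (edgeR, n = 3 and 5).

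Likeness to other names was described by Spearman's rho of log2 CPM over the 16 libraries, among 373 other names above 0 in every library with a mean of at least 100 CPM. The libraries share their scaling and depth in this measure, and no test was made. The names most like miR-21-5p were miR-199a-3p (rho 0.88) and miR-10b-5p, miR-143-3p and miR-25-3p (0.83 each). Those most like miR-29a-3p were miR-23a-3p (0.92), miR-10a-5p (0.91), miR-186-5p (0.90) and miR-205-5p (0.90). Among the members, miR-21-5p was most like miR-29b-3p (0.79) and miR-29a-3p most like miR-29c-3p (0.76), while miR-21-5p against miR-29a-3p gave 0.57. miR-34a-5p had a negative rho with each of the other 5, from −0.47 to −0.17.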

How the data were processed

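Libraries were made from sheep serum and serum EVs with the QIAseq miRNA kit from 1 ng of RNA, and EVs were isolated on a size-exclusion column, per the labels' protocols. The deposited table holds whole-number counts per human miRNA or piRNA name. Per the submitters' processing notes, bcl2fastq 2.20.0.422 and the build hg19 were used. Not given in the sources used here are the aligner, the counter, the annotation, filters and whether molecular identifiers were counted.

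Counts were used as deposited. edgeR 4.0.16 (R 4.3.3) fitted each comparison on its own groups (quasi-likelihood test, TMM factors, low counts removed by filterByExpr at a minimum of 10). TMM factors ran from 0.278 to 2.94 over the libraries. The SE is the fold change divided by the root of the F statistic. The test was also run on simulated data, which had no shared zeros and, apart from the changes put in, no differences in composition between libraries. That run therefore does not show what the test could detect here. Alternatives were DESeq2 1.42.0, RLE factors, library totals, no filter, a minimum of 50 in the filter, blocking on the animal, 1 fit over 16 libraries, shared zeros as a term and each library left out. Shared zeros were sets of libraries joined at a phi coefficient above 0.8. Fits within such a set and the share of miR-29a-3p were added after the values were seen.

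Letters in the titles were read as animals, which pairs the libraries, although the labels do not say so. Deviations of same-letter libraries from their group means correlated from −0.17 to 0.69. The highest value, 0.694 for EVs of animal D after against before surgery, stood beside 0.688 for libraries of different letters. Between EVs and serum, same-letter values ran from −0.17 to 0.16, and most lay below a value for different letters. The pairing thus rests on the titles and not on these correlations. Labels say no more on how libraries relate, so p-values measure the spread between these libraries, which may be technical. The members, lists and tests were chosen with earlier results of these data known. All 6 members and the relatives with a row are named, with the 4 most abundant other fibrosis-linked names and the 4 names most like miR-21-5p and miR-29a-3p.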

Additional observations from a re-analysis of the deposited data

Results flagged for a closer look

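Of 16 sets of 5 libraries checked for 1 value far from the rest, 2 held one, where chance gives about 1 in 20. In serum before surgery, miR-29c-3p took 0.173% of counts in animal D, and the nearest other library had 0.0537%. This library of animal D also held the highest share in its group of most other members. The log2 ratio of miR-21-5p to miR-29a-3p in serum before surgery was 2.54 in animal A, and the nearest other was 1.29. In the 2 animals sampled at both times, the after-minus-before difference in the log2 ratio of miR-21-5p to miR-29a-3p had a positive sign in serum (mean 0.34) and a negative sign in EVs (mean −0.50). In serum it was 0.0021 in animal D and 0.67 in animal E, and in EVs −0.87 and −0.13. The counting intervals of the ratio before and after surgery overlapped in serum of animal D and in EVs of animal E, so those signs carry no direction beyond counting error. Against the sum of the 3 miR-29 members, the serum differences were 0.16 in animal D and 0.54 in animal E. The EV differences were then −0.61 in animal D and 0.15 in animal E, so the sign of animal E turned. The difference between serum and EVs was not tested.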

How the results depend on the processing

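No member passed the threshold under any alternative. Of 215 member values under other settings, 188 kept their direction and 27 turned it (smallest adjusted p = 0.220, DESeq2, miR-29a-3p in EVs against serum before surgery). With 1 library left out, 35 of 288 turned direction (smallest adjusted p = 0.167, edgeR).

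Values that turned direction are log2 fold changes. Under library totals, serum after against before surgery gave −0.53 for miR-34a-5p, and EVs gave −0.13 for miR-29a-3p, −0.29 for miR-214-3p and −0.61 for miR-34a-5p. EVs against serum gave 0.81 for miR-21-5p, 1.21 for miR-29b-3p and 0.33 for miR-29c-3p before surgery, and 0.62, 0.25, 0.58, 0.83 and 1.07 for miR-21-5p, miR-29b-3p, miR-29c-3p, miR-214-3p and miR-34a-5p after it. The interaction of miR-21-5p was −0.18. Apart from this interaction, these values moved the same way as the centre of all names. In after against before surgery the median of all names was −0.20 with TMM and −0.88 under library totals in serum, and −0.017 and −0.55 in EVs. In EVs against serum it was 0.35 and 1.05 before and 0.30 and 1.48 after surgery. For the interaction the median moved the other way from miR-21-5p, from 0.26 with TMM to 0.48 under library totals. With the animal as a replicate block, miR-34a-5p was −0.24 in serum and −0.27 in EVs, and in EVs miR-21-5p was 0.20, miR-29c-3p 0.024 and miR-214-3p −0.38. miR-29a-3p was −0.075 in EVs against serum after surgery. With shared zeros as a term, miR-21-5p was 0.20 and miR-34a-5p −0.18 in EVs, and inside the set of 5 EV libraries they were 0.16 and −0.23. With a minimum count of 50, miR-34a-5p was −0.084 in EVs and miR-29b-3p 0.27 in EVs against serum before surgery. In EVs against serum after surgery miR-34a-5p was 0.038 with RLE factors and 0.036 with DESeq2. What turned these directions was not tested.

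With 1 library left out, fold changes ran as follows. In serum after against before surgery they were −0.65 to 0.23 for miR-21-5p and −0.65 to 0.21 for miR-29b-3p. In EVs they were −0.55 to 0.13 for miR-21-5p, −0.24 to 0.92 for miR-29a-3p, −0.79 to 0.27 for miR-29c-3p, −1.73 to 0.62 for miR-214-3p and −0.21 to 0.19 for miR-34a-5p. For EVs against serum, miR-29b-3p had −0.59 to 0.25 before surgery. After surgery miR-21-5p had −0.77 to 0.026, miR-29a-3p −0.53 to 0.63, miR-29c-3p −0.69 to 0.37, miR-214-3p −2.03 to 0.25 and miR-34a-5p −0.30 to 0.13. Interactions were −0.22 to 0.61 for miR-21-5p and −0.47 to 1.87 for miR-214-3p.

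The difference in the log2 ratio of miR-21-5p to miR-29a-3p ran from 0.078 to 0.78 in serum and from −0.87 to 0.18 in EVs (after against before surgery), from 0.59 to 1.02 for EVs against serum before surgery and from −0.55 to 0.54 after it. Within the serum libraries that share zeros it was 1.31. The share of miR-29a-3p in its family differed in EVs by 12.1 to 17.3 percentage points, and in serum by −12.7 within the libraries that share zeros against −0.49 over all.

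Counts of names past the threshold moved more. In serum after against before surgery 2 passed with no filter. For EVs against serum before surgery (23 names), 54 passed by DESeq2, 56 with no filter, 57 in 1 fit over 16 libraries, 0 with a minimum count of 50, 0 with the animal as a replicate block and 26 to 89 with 1 library left out, 89 of them without serum of animal D. After surgery 41 passed by DESeq2, and 0 to 251 with 1 library left out, 251 without serum of animal D. In the interaction 5 passed by DESeq2, and 0 to 6 with 1 library left out, 6 without serum of animal B before surgery. The animal as a block changed no other call. Depth limits miR-29b-3p, miR-29c-3p, miR-214-3p and miR-34a-5p most.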
